A study of Arabidopsis thaliana with 2 samples.

Results

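The introns described here were retained more often in lefko mutant embryos than in wild-type embryos of Arabidopsis thaliana. They numbered 59 introns in 59 genes, of 115 intron retention events and 270 splicing events of all kinds in the deposited tables. Each was chosen by the values themselves: the retained share, which is the reads that keep the intron divided by the reads that keep or skip it (IC/(IC+SC) in the table), was higher in the mutant than in the wild type. A further 5 introns met the same condition in genes that were left out by name, and 51 introns were retained less often in the mutant. The 51 were not filtered by name and include introns of left-out genes, such as GEX1, M17 and ILR1. Comparisons with them below are therefore between groups that were not chosen alike.

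The mutant sample was globular to heart stage embryos of the lefko mutant, named lefko1 in the sample label and lefko2 in the study title and table headings. The wild-type sample was embryos of the same stages without the mutation. Both were of the Col-0 ecotype, and both were dissected from siliques, the seed pods. The labels do not name the mutated gene, the number of embryos pooled or whether the libraries kept strand. There was 1 sequenced sample for each genotype, so no difference below has a replicate check and no test of the genotypes was made. Each table cell holds 3 joined read counts whose meaning the labels do not give. They are shown as the joined values of a genotype, in the order of the file, and are not taken as replicate embryos.

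Introns are removed from a transcript by the spliceosome, which recognises a 5′ splice site, usually GT, and a 3′ splice site, usually AG. In plants, retention of a whole intron is the most common form of alternative splicing. An intron kept between coding exons often brings a stop codon into the reading frame, and a transcript that stops early, upstream of a later exon junction, can be a substrate of nonsense-mediated decay. An intron kept in the 5′ untranslated region (5′ UTR) leaves the protein sequence as it is but changes the leader that ribosomes scan, and it can add start codons upstream of the main one.

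The first sequences shown are the positions where translation would stop in 6 retained coding introns, because the stop codon is what retention adds to the reading frame. Each line reads 5′ to 3′ on the strand of the gene, with the stop codon in capitals, 18 bases before it and 9 after it. The introns lie, in TAIR10 coordinates, at chr1:12909633-12910041 on the plus strand (AT1G35220), chr5:20067065-20067447 on the plus strand (AT5G49470), chr4:17852972-17853217 on the plus strand (ELI3-1), chr1:9532202-9532400 on the plus strand (APT1), chr1:4139197-4139340 on the plus strand (FMO) and chr1:11968745-11968970 on the minus strand (AT1G33050). The bases were read from the RefSeq TAIR10.1 genome.
AT1G35220: attctagtggagagttacTAGcaaatcatt
AT5G49470: ctaaatgctatgcaggtaTAAtttgcgtat
ELI3-1: tatcctcttgtccctgggTAAcacaaattt
APT1: caccttctatttccctttTAAactttttgt
FMO: tggtttaacttggtttctTAGatcactccc
AT1G33050: gcctataaattgctagctTAAgccacatga
In ELI3-1 the stop codon begins at base 2 of the intron and in AT5G49470 at base 4, so both lie within the first 6 bases of the intron. In FMO it begins at base 142 of an intron of 144 bases and ends with the AG of the 3′ splice site.

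The second group of sequences is the 5′ splice sites of 4 introns in 5′ UTRs, shown because this place held 20 of the 59 introns. The capitals mark the first 2 bases of the intron, after 10 bases of exon. The introns lie at chr1:22441935-22442107 on the minus strand (SNRK2.10), chr1:29458921-29459267 on the minus strand (SNRK2-8), chr5:6822099-6822186 on the plus strand (AT5G20220) and chr5:18160366-18160597 on the plus strand (AT5G44980).
SNRK2.10: catcatcattGTaattcgtaatcatatctt
SNRK2-8: atccgaaaatGTgcgatccaccttaatccc
AT5G20220: gtgtgtggtgGTgggtgttcctgatctgat
AT5G44980: ggattatgtgGTgagctacagaacaagaag
A further pair is shown because these were the only 2 of the 59 introns that began with GC in place of GT. They lie at chr1:1942859-1942947 on the minus strand (AT1G06370) and chr5:8971430-8971672 on the minus strand (AT5G25770).
AT1G06370: cttccaagagGCaagttgaaaagcaggacc
AT5G25770: ttggtgcaagGCatgtgatttgattttttt

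The median retained share was 95.5% in the mutant and 66.7% in the wild type. The share was over 50% in 55 introns in the mutant and in 39 in the wild type, so for many of them the wild type already kept the intron in most reads. In the other 20 the wild-type share was at most 50%. In 13 introns it was under 20%, and 9 of these lay between coding exons. The 21 introns between coding exons had a median share of 94.1% in the mutant and 32.6% in the wild type. The median difference was 25.9 percentage points, from 4.89 in AT1G77420 to 87.5 in AT2G43700. Because the direction of this difference was what the introns were selected on, it is a description and carries no test.

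The difference was at least 20 points in 39 of the 59 introns, where 36.5% of all 115 listed retention events were that much higher in the mutant. All 3 joined values of the mutant lay above all 3 of the wild type in 48 of the 59, where 46.1% of the listed events did so. The exact 95% Clopper-Pearson intervals of the summed shares, which cover counting error only, did not overlap in 36 introns. That count was not made over all listed events, so it has no background here. Nothing is read from any of these counts, since the introns were chosen on the same contrast. Many genes named below were also named because their joined values did not overlap. In those genes a lack of overlap follows from the choice and is no support for a difference. In the authors' deposited table the false discovery rate was at most 0.0492 for these introns, and at most 0.01 in 38 of the 59. It was at most 0.01 in 76 of all 115 listed retention events and in 33 of the 51 less retained introns.

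**Figure D1:**
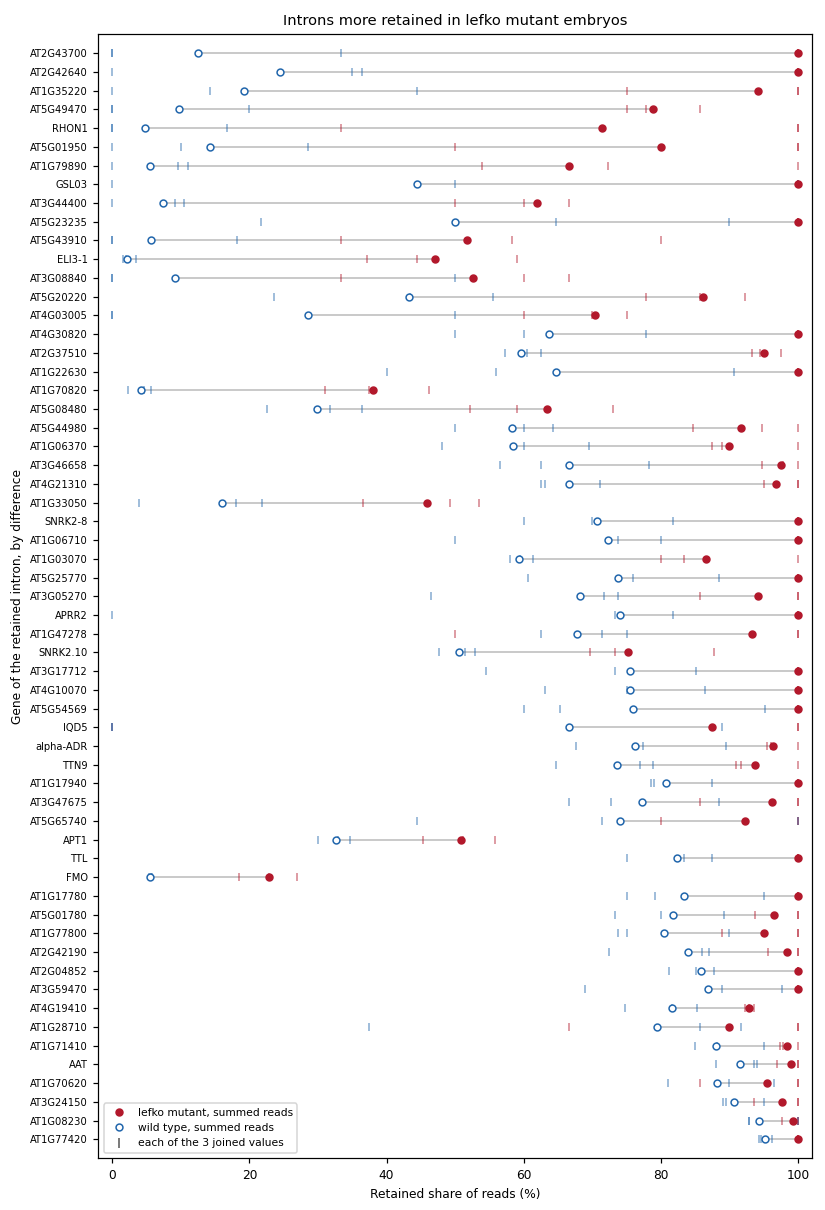
Retained share of reads (%, horizontal axis) of the 59 introns, 1 row per gene ordered by the difference; filled red circles are summed mutant reads, open blue circles summed wild-type reads, and ticks of the same colours the 3 joined values. The mutant circles gather near the right edge, with a median of 95.5%, while the wild-type circles, with a median of 66.7%, are spread from ELI3-1 (2.21%) to AT1G77420 (95.1%).

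In 19 introns the mutant had no skipping read at all, as in 22 of all 115 listed retention events. The wild type had at least 1 in each of the 59. That follows from the choice, since no mutant share can exceed a wild-type share of 100%. Those 19 introns had 3 to 288 reads in the mutant, with a median of 25, so a count of 0 still allows a skipping share of 1.04% to 100% (3 counts of the total). That limit lay below the share of skipping reads in the wild type in 17 of the 19. The introns were chosen on this same contrast, so the count of 17 is no support for a difference. AT1G77420, which encodes an alpha/beta-hydrolase family protein, had the most reads among them. All of its 288 mutant reads kept the intron, against 623 of 655 wild-type reads (95.1%).

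Reads over these introns were fewer in the mutant. A member had 3 to 1586 reads in the mutant, with a median of 31, and 7 to 2035 in the wild type, with a median of 65. Mutant reads divided by wild-type reads had a median of 0.462, against 0.616 over the 51 less retained introns and 0.510 over all listed retention events. In 9 of the 59 introns the mutant had more reads. Library totals were not analysed here, so a ratio of reads mixes sequencing depth with transcript level. In bulk embryos, fewer cells of a type and less RNA per cell cannot be told apart, and the mix of cells could likewise not be separated from the share within a cell. The tables list splicing events only: none of 8 embryo, 6 endosperm and 5 seed coat marker genes had a listed event, and the tissue could not be checked from them.

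By place in the transcript, 20 introns lay in the 5′ UTR, 21 between coding exons, 3 in the 3′ UTR and 6 in transcripts without a coding sequence. The other 9 were not equal to any annotated intron of the listed gene. The 5′ UTR thus held 33.9% of these introns, against 13.7% (7 of 51) of the introns that were less retained in the mutant. Introns between coding exons made up 35.6% of them, against 58.8% (30 of 51) of the less retained ones. Among the 122226 annotated introns of coding genes counted for the genome, 4.79% lie in a 5′ UTR and 93.5% between coding exons. The 59 also count introns without a coding sequence and introns that are not annotated. They were placed in a transcript that removes the intron, which for APRR2 is 1 of 11. The genome shares are thus not like measures of the shares of the 59. No test was made of these shares, and the 51 less retained introns still hold genes that were left out of the 59.

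**Figure D2:**
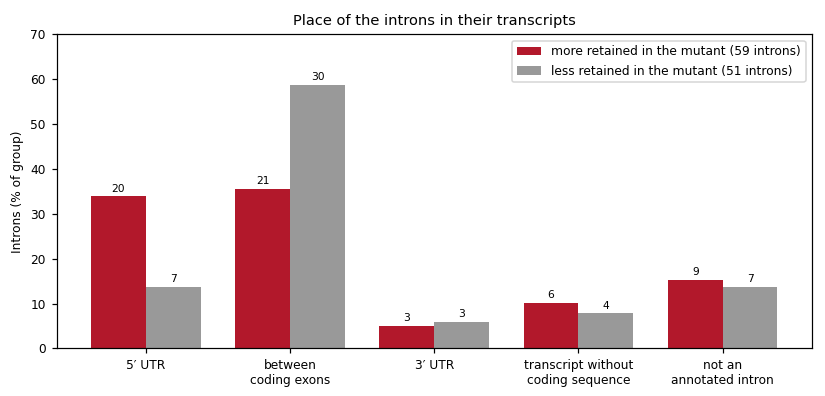
Share of introns (% of each group, vertical axis) by place in the transcript, for the 59 introns more retained in the mutant (red) and the 51 less retained (grey); the number over each bar is the count of introns. The red bar is the higher one for the 5′ UTR (20 against 7 introns), and the grey bar is the higher one between coding exons (21 against 30).

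In 19 of the 20 5′ UTR genes the retained intron was the first of the transcript. The exception was AT4G30820, where it was intron 2 of 5. The midpoint lay in the first 20% of the transcript in 18, and farther in for AT4G30820 (44.0%) and AT5G08480 (45.3%). They were 70 to 637 bases long, with a median of 169.5. An ATG triplet occurred within 15 of the 20, and APRR2, a gene named as a pseudo-response regulator and picked out after its values were seen, held 13 of them. The spliced distance from the intron to the main start codon had a median of 56 bases and was under 30 bases in 6 genes.

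The retained share of 5′ UTR introns had a median of 95.2% in the mutant and 67.4% in the wild type, and the difference had a median of 25.9 points. SNRK2.10, a kinase of the plant SnRK2 family, which acts in osmotic stress signalling, had joined values of 87.7%, 69.7% and 73.3% in the mutant, against 47.6%, 52.9% and 51.4% in the wild type. The summed shares were 75.2% (interval 69.5 to 80.3) of 262 mutant reads and 50.6% (46.5 to 54.6) of 605 wild-type reads, and the joined values of the genotypes did not overlap. SNRK2-8, another kinase of that family, kept the intron in all 24 mutant reads, against 70.7% of 41 wild-type reads, with joined values of 70%, 81.8% and 60%. Again no wild-type value reached the mutant ones.

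AT5G20220, annotated as a CCHC-type zinc knuckle protein, had joined values of 92.3%, 77.8% and 85.7% in the mutant, against 55.6%, 43.5% and 23.5% in the wild type. Its summed share was 86.1% of 79 mutant reads and 43.3% of 67 wild-type reads. A lack of overlap between the joined values was a condition for naming this gene. The intron of AT4G30820, whose product is annotated as an assembly factor of the kinase that activates cyclin-dependent kinases, was kept in all 14 mutant reads, against 63.6% of 22 wild-type reads. AT5G44980, an F-box protein gene, kept its intron in 91.7% of 36 mutant reads and 58.3% of 36 wild-type reads. F-box proteins select targets for ubiquitination. In AT3G05270, annotated as a filament-like protein, the values were 94.1% of 17 mutant reads and 68.2% of 154 wild-type reads. The smallest difference in a 5′ UTR was in AT3G24150, an uncharacterised gene, with 97.7% of 131 mutant reads and 90.6% of 427 wild-type reads. Its lowest mutant value, 93.6%, lay below its highest wild-type value, 95%.

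In AT5G08480, a VQ-motif protein gene picked out after its values were seen, the 5′ UTR intron is the only intron of the transcript and holds 12 ATG triplets. It was kept in 63.5% of 260 mutant reads and 29.9% of 97 wild-type reads. This intron also overlaps SLG1 on the opposite strand, and reads of the 2 genes cannot be told apart without strand.

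Between coding exons, 17 of the 21 introns held a stop codon in the frame of the upstream exons (81.0%), against 23 of 30 (76.7%) of the less retained coding introns. The stop codon was TAA in 8, TAG in 6 and TGA in 3. It began at a median of base 32 of the intron, and within the first 30 bases in 8. In 16 of the 17 it lay at least 50 bases upstream of the last other exon junction of the transcript, the distance commonly used to mark a possible target of nonsense-mediated decay. The exception was AT2G43700. The same count was 13 of 23 in the less retained introns. In some transcripts, such as those of AT1G33050 and AT3G08840, the annotated stop codon also lies that far upstream when the intron is removed. The count was not compared with that of the annotated stop codons, so it does not measure what retention adds. Of 13 genes of nonsense-mediated decay and the exon junction complex that were looked up, 10 were matched to the annotation and 0 had a listed splicing event, and their expression was not analysed here.

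Most of these stop codons fell early in the coding sequence. A median of 23.5% of the coding sequence, or 106 codons, lay upstream of the 17 introns with a stop, against 78.8%, or 320 codons, for the less retained introns with a stop. In 10 of the 17 less than 30% of the coding sequence lay upstream. The range was wide, from 6 of 634 codons in AT2G43700, a lectin kinase gene, to 838 of 845 codons in AT3G08840, a D-alanine-D-alanine ligase family gene. Both were picked out after their values were seen.

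**Figure D3:**
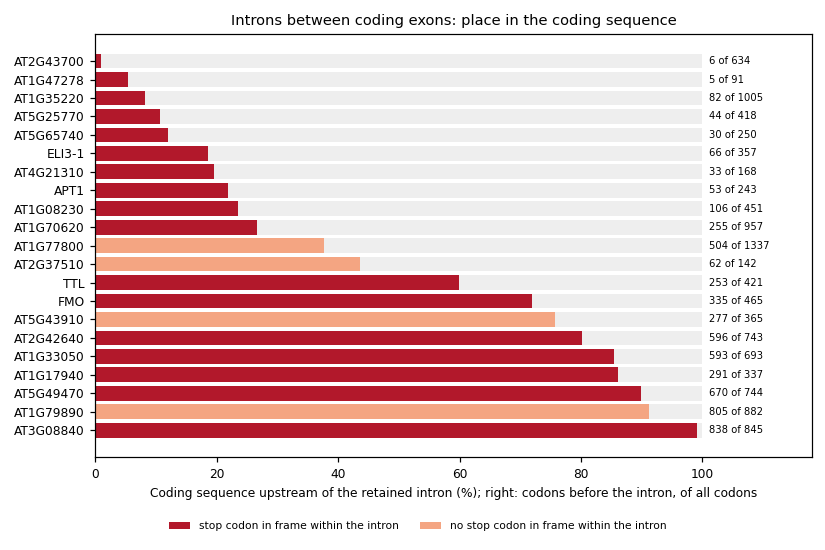
Coding sequence upstream of the retained intron (%, horizontal axis) for the 21 introns between coding exons; dark bars have a stop codon in frame within the intron, light bars have none, and the figures at the right are codons before the intron of all codons. Of 17 dark bars, 10 end below 30%, and the 4 light bars end between AT1G77800 and AT1G79890.

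AT1G35220 had the widest difference among the introns with at least 10 reads in each genotype. It encodes a protein with a FAM91 carboxy-terminal domain, and the stop shown above would follow 82 of 1005 codons and part of the intron. The joined values were 75%, 100% and 100% in the mutant, against 0%, 44.4% and 14.3% in the wild type. The summed share was 94.1% (71.3 to 99.9) of 17 mutant reads and 19.2% (6.55 to 39.4) of 26 wild-type reads. A lack of overlap between the genotypes was a condition for naming this gene, and the counts are small and the intervals wide.

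AT5G49470, annotated as a kinase with a PAS domain, had joined values of 75%, 85.7% and 77.8% in the mutant, against 0%, 20% and 0% in the wild type. Its summed share was 78.8% (61.1 to 91.0) of 33 mutant reads and 9.76% (2.72 to 23.1) of 41 wild-type reads. Here most counted reads kept the intron in the mutant and few did so in the wild type. A share of reads not corrected for length does not give the share of transcripts. The stop codon would follow 670 of 744 codons, near the end of the protein.

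ELI3-1 is annotated as cinnamyl alcohol dehydrogenase 7, of a class of enzymes named for the reduction step that makes lignin precursors. Its intron was kept in 44.4%, 37.2% and 59.0% of reads in the mutant, against 2.02%, 1.57% and 3.46% in the wild type. The summed share was 47.0% (36.9 to 57.2) of 100 mutant reads and 2.21% (1.41 to 3.30) of 1039 wild-type reads. Every mutant value was more than 30 points above every wild-type value. This gene was named partly for that lack of overlap, so the gap is no support for a difference. The stop would follow 66 of 357 codons. No annotated transcript of ELI3-1 keeps this intron.

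APT1, adenine phosphoribosyltransferase, recycles adenine into AMP, and it had the most wild-type reads of the 59. Its joined values were 55.8%, 45.3% and 51.2% in the mutant, against 34.7%, 30% and 32.9% in the wild type. The summed share was 50.9% (47.5 to 54.2) of 869 mutant reads and 32.6% (30.5 to 34.7) of 2035 wild-type reads. The values did not overlap, and the depth makes this one of the most precisely measured differences. The stop would follow 53 of 243 codons.

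FMO, a flavin-binding monooxygenase family gene, was also deeply covered. The intron was kept in 26.9%, 18.4% and 22.8% of reads in the mutant, against 5.34%, 5.77% and 5.60% in the wild type. Its summed share was 22.9% (20.5 to 25.6) of 1077 mutant reads and 5.56% (4.47 to 6.82) of 1546 wild-type reads. Most counted reads thus skipped the intron in both genotypes. AT1G33050, an uncharacterised protein gene, had a like pattern, with 45.9% of 218 mutant reads and 16.1% of 218 wild-type reads. AT4G21310, a putative transmembrane protein gene, has the shortest of the 59 introns (67 bases). It was kept in 96.8% of 31 mutant reads and 66.7% of 81 wild-type reads, and a gene annotated on the opposite strand overlaps it.

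The longest intron, of 1204 bases, was in AT1G08230, an amino acid transporter family gene. It was kept in 99.3% of 287 mutant reads and 94.4% of 177 wild-type reads. One wild-type joined value was 100%, so the genotypes overlapped. AT1G70620, annotated as a cyclin-like protein, had 95.5% of 22 mutant reads and 88.2% of 76 wild-type reads, and its difference turned to -2.01 points when the first joined value of both genotypes was left out.

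In 4 coding introns no stop codon stood in frame. Those of AT2G37510 (75 bases) and AT1G77800 (81 bases) are multiples of 3 and would lengthen the protein. Those of AT1G79890 (104 bases) and AT5G43910 (86 bases) would shift the frame of the exons after them. In both, the shifted frame meets a stop codon before the annotated one. That stop lies 176 bases upstream of the last other exon junction in AT5G43910, and downstream of it in AT1G79890. Neither is in the counts of stop codons above. AT2G37510, annotated as an RNA-binding protein with an RRM motif, had joined values of 94.4%, 93.3% and 97.6% in the mutant, against 60.5%, 57.3% and 62.5% in the wild type. Its summed share was 95.1% (92.8 to 96.8) of 487 mutant reads and 59.6% (52.1 to 66.7) of 183 wild-type reads. The joined values of each genotype were close to each other. This gene was named partly for the lack of overlap between the genotypes, so the gap between them is no support for a difference.

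AT1G79890, annotated as a RAD3-like helicase, a class that unwinds DNA, had joined values of 100%, 53.8% and 72.2% in the mutant, against 9.52%, 0% and 11.1% in the wild type. Summed over the joined values this was 66.7% of 33 mutant reads and 5.45% of 55 wild-type reads. This intron overlaps BAC2 on the opposite strand. AT5G43910, annotated as a pfkB-like carbohydrate kinase, had joined values of 58.3%, 80.0% and 33.3% in the mutant, against 0%, 0% and 18.2% in the wild type. The mutant values were all higher, for which this gene was partly named, but spread widely, over 29 mutant reads and 35 wild-type reads.

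The 3 introns in 3′ UTRs included that of AT3G44400, a disease resistance gene of the TIR-NBS-LRR class, whose proteins sense pathogens. It was kept in 60%, 50% and 66.7% of reads in the mutant, against 9.09%, 0% and 10.5% in the wild type. This came to 61.9% of 21 mutant reads and 7.41% of 54 wild-type reads, and a lack of overlap was a condition for naming this gene. In the 6 transcripts without a coding sequence the median share was 98.7% in the mutant and 62.6% in the wild type. In 5 of these 6 the intron overlaps a gene on the opposite strand, whose reads cannot be told apart here; the exception was AT1G06370. AT5G23235 kept its intron in all 25 mutant reads, against 21.7%, 64.7% and 90% in the wild type, so that the wild-type values alone ranged over more than 60 points. AT3G46658, a noncoding RNA gene, kept its intron in 97.5% of 237 mutant reads and 66.7% of 54 wild-type reads.

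Among the 9 introns that were not annotated introns of the listed gene, AT4G19410 had the deepest coverage. It encodes a pectin acetylesterase, an enzyme that removes acetyl groups from cell wall pectin. Its joined values were 93.6%, 92.9% and 92.2% in the mutant, against 81.6%, 85.2% and 74.7% in the wild type. The summed share was 92.9% (91.5 to 94.1) of 1586 mutant reads and 81.7% (79.5 to 83.7) of 1331 wild-type reads, so reads with this splice made up a smaller share in the mutant. AT1G22630, annotated as an SSUH2-like protein, kept its intron in all 31 mutant reads and in 64.6% of 82 wild-type reads.

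For AT1G70820 the listed intron does not lie in that gene, but in AT1G70790 in the annotation used here. Its joined values were 31.0%, 46.2% and 37.5% in the mutant, against 4.65%, 2.33% and 5.71% in the wild type. Summed, these were 38% of 79 mutant reads and 4.13% of the wild-type reads. Transcripts of AT1G70790 both remove and keep this intron. The listed intron of AT3G17712 lies in AT3G17715, and that of AT3G47675 is an annotated intron of AT3G47680. In all, 12 of the 59 introns overlapped another annotated gene, 3 of them on the same strand.

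Most of these introns have a retained form in the annotation. In 48 of the 59 at least 1 annotated transcript of the listed gene keeps the intron, and in 46 the annotation holds both a transcript that keeps it and one that removes it. The annotation removes the intron and never keeps it in 4 genes, ELI3-1, AT1G33050, APRR2 and TTL. The other 7 introns were neither kept nor removed as such in a transcript of the listed gene, and 5 of them in no transcript of another gene on that strand either.

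The more retained introns lay nearer to the 5′ end of their transcripts than the less retained ones. The retained intron was the first one in 23 of the 50 annotated members (46.0%), against 9 of 44 less retained ones (20.5%), and 18.2% of all annotated introns are first. The midpoint of the intron lay at a median of 34.6% of the transcript, against 70.4% for the less retained introns and 50% for all annotated introns. Without the 5′ UTR introns the median was 61.0%, against 72.8% for the less retained and 51.9% for the annotated introns. Between coding exons alone it was 45.1%, against 73.3% and 51.2%. The genome values cover coding genes only, while the 50 members were placed in a transcript that removes the intron. Genome and member positions, and shares of first introns, are thus not like measures. No test was made of the positions.

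The retained introns were long for this genome. Their median length was 217 bases (quartiles 100.5 and 388), against 97 for the less retained introns and 100 for all annotated introns. Of the 59, 22 were longer than 300 bases, against 7 of the 51 less retained. Between coding exons the median was 226 bases, against 95.5 for the less retained and 98 for the annotated introns. In the 5′ UTR it was 169.5 bases, below the 275 of the 7 less retained introns there and the 192 of the annotated ones. Of 47 introns in transcripts with other introns, 30 were longer than the median of those others, against 18 of 44 less retained. The annotated introns are those of coding genes only, so their lengths are not a like measure for all of the 59. The retained share was not corrected for intron length.

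**Figure D4:**
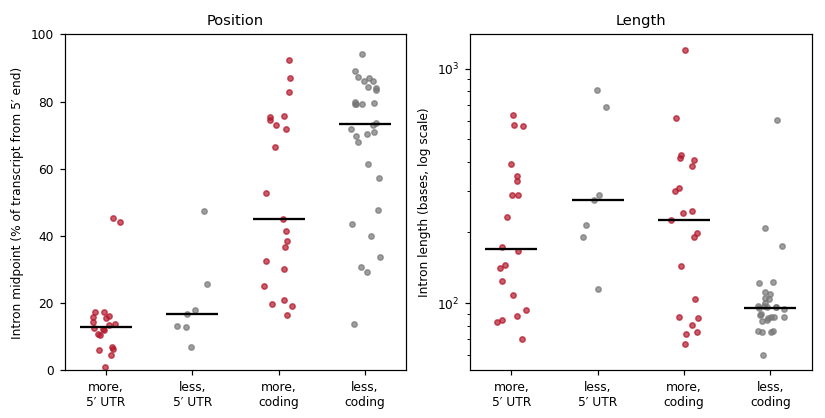
Position of the intron midpoint (% of the transcript from its 5′ end, left) and intron length (bases, log axis, right) for 5′ UTR and coding introns that were more retained in the mutant (red) and less retained (grey); each point is 1 intron and the black lines are medians. Between coding exons the median position was 45.1% against 73.3%, and the median length 226 against 95.5 bases; in the 5′ UTR the median length was 169.5 against 275 bases.

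Base composition and splice sites were much like those of other introns. Their median GC content was 34.6%, against 34.1% in the less retained introns and 32.7% in the annotated introns of coding genes. GT and AG bounded 57 of the 59, and the GC-AG introns were the 2 shown above. In AT1G06370, a gene with no coding sequence, the intron was kept in 90% of 30 mutant reads and 58.5% of 65 wild-type reads. In AT5G25770, an alpha/beta-hydrolase family gene, it was kept in all 21 mutant reads and 73.8% of 84 wild-type reads. The G at base 5 of the intron, part of the stretch that pairs with the U1 snRNA, was present in 54.2% of the introns, against 45.1% of the less retained and 49.7% of the annotated ones. A G as the last exon base stood before 78.0% of them, against 86.3% and 76.7%.

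The annotated products were searched for keywords of 8 functional groups, which catch only what a product name or synonym spells out. They placed 33 of the 59 introns in a group, 1 of them in a pair of groups, and left 26 in none. The counts below are therefore counts of keyword matches and not of all genes with a function. Keywords of kinases and receptors matched 8 of the 59 introns (13.6%), against 5 of 51 less retained introns (9.80%) and 13 of all 115 (11.3%). They were SNRK2.10, SNRK2-8, AT5G49470, AT5G43910, AT2G42640, AT4G30820, AT5G01950 and AT2G43700, with 4 introns in the 5′ UTR and 4 between coding exons. The keyword joins unlike genes: AT5G43910 is a carbohydrate kinase and AT4G30820 an assembly factor. The differences had a median of 55.9 points and a range of 24.6 to 87.5. Coverage was thin in 3 of them: AT2G43700 had 3 mutant reads, AT2G42640 had 6 and AT5G01950 had 5, and these genes are named only as members of the group. In the 5 with at least 10 reads in each genotype the median was 36.4 points, with a range of 24.6 to 69.0. All 3 mutant values were above the wild-type ones in all 8, as they were in 48 of the 59 introns and in 46.1% of all listed events.

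Keywords of enzymes of metabolism also matched 8 introns (13.6%), against 7 of 51 less retained (13.7%) and 13.0% of all listed events. Their median difference was 14.7 points, and the joined values were apart in 6. They were AT4G19410, APT1, ELI3-1, AT1G77420, AT5G25770, AT1G28710, a sugar transferase gene, AAT, an aminotransferase of amino acid synthesis, and GSL03, a glucan synthase-like gene. Further enzymes were not caught by these words, among them FMO, AT3G08840 and AT5G01780, a dioxygenase family gene. The largest keyword group was that of genes without a coding sequence or without a characterised product, with 13 introns (22.0%). It held 4 of 51 less retained introns (7.84%) and 14.8% of all listed events. The median difference of the 13 introns was 25.9 points.

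The other keyword groups held 2 introns or fewer. The words for RNA processing matched AT2G37510 and, through the word helicase, the RAD3-like helicase AT1G79890, against 2 less retained introns. Among all listed retention events these words matched 6 introns. Those in neither count were more retained introns of genes left out by name. The comparison with the less retained introns is therefore uneven. AT1G79890 was matched again by the words for transcription and chromatin, as the only intron there. These words matched 3 less retained introns and 5 of all listed events. Genes of that kind with other product names were not caught, such as APRR2, AT1G77800, a PHD finger gene, and AT3G59470, of the FAR1 family. The words for protein turnover matched 1 intron (AT5G44980) against 4, those for transport 1 (AT1G08230) against 1, and those for translation 0 against 1. Among all listed events these words matched 5, 3 and 1 introns, in the same order. The words for transport did not catch alpha-ADR, an adaptin of clathrin-coated vesicles, or AT1G17940. The genes named here as not caught were picked out after their values were seen.

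At the boundary of the choice, the smallest positive differences were 4.89 points in AT1G77420, 4.95 in AT1G08230, 7.08 in AT3G24150 and 7.30 in AT1G70620. On the other side, AT2G48130 kept its intron in 94.3% of mutant reads and 100% of wild-type reads, M17 in 89.5% and 97.0%, LTI30 in 91.4% and 100%, and RAB18 in 90.6% and 100%. None of the 59 introns and none of the 51 less retained ones had a difference between -5.68 and 4.89 points.

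Of the 59 genes, 6 also had events at alternative splice sites in the tables. In AT3G05270 the listed share of the alternative 3′ splice site event was 95.2% in the mutant and 68.8% in the wild type. Its skipping reads, 1 in the mutant and 49 in the wild type, equalled those of the retention event in number. The nearness to the retained share is thus not a separate observation. In AT1G17940, annotated as a BRO1-like endosomal protein and picked out after its values were seen, the intron was kept in all 108 mutant reads and 80.7% of 441 wild-type reads. Its alternative 3′ splice site event had 100% in the mutant and 89.4% in the wild type, with the same numbers of skipping reads (0 and 85) as the retention event. AT1G03070, a Bax inhibitor family gene, had an alternative 5′ splice site share of 9.18% in the mutant and 30.6% in the wild type. The form that the listed share counts differs between kinds of event, so this direction cannot be set against that of retention. Its intron was kept in 86.5% of 52 mutant reads and 59.3% of 413 wild-type reads. In AT4G30820, AT5G65740 and AT1G08230 the skipping reads of the other events also equalled those of the retention event in number. In the mutant and the wild type they were 0 and 8, 1 and 13, and 2 and 10, in that order. Events of 1 gene can share reads and are not independent of each other.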

How the data were processed

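RNA from embryos of the lefko mutant and of the wild type was sequenced from TruSeq low input libraries, 1 sample for each genotype. The reads were aligned with HISAT2 2.0.4 to TAIR10, per the submitters' processing notes. Which program called the events is not given in the sources used here. For each event and genotype, the deposited tables hold 3 joined counts of reads that include (IC) and skip (SC) the intron, and the authors' false discovery rate beside their p-value. Only events with a false discovery rate under 0.05 are listed.

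The joined counts were added per genotype, and the retained share was computed as IC/(IC+SC). Introns with a higher share in the mutant were taken, leaving out 16 gene names. The less retained introns used for comparison were kept under all names. The introns and the lists of genes were chosen with earlier results of these data known. Intervals are exact Clopper-Pearson at 95%. They cover counting error only, since PCR reads without molecular identifiers are not independent molecules. A count of 0 allows 3 counts of the total. Reads per intron ranged from 3 to 1586 in the mutant and from 7 to 2035 in the wild type; library totals were not analysed here.

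The listed exon starts count from 0: of 345 exons checked, 295 equalled an annotated exon on that reading and 0 as listed, and positions are printed from 1. Place, position, reading frame and length came from the RefSeq TAIR10.1 annotation, from the transcript that removes the intron, and were checked on simulated data. Sequences are from the same assembly. The functional groups are keyword matches to the annotated products. Protein sequences were not used here.

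Genes were named by rule: the widest differences with at least 10 reads in each genotype and no overlap of the joined values, the deepest covered, those nearest to a difference of 0, the shortest and longest introns, and examples of each functional group. Others are said to be picked out. Alternatives were a minimum of 10 reads, a false discovery rate of at most 0.01, the unweighted mean of the joined shares, leaving out each joined value, 10 points in place of 20, and other choices of transcript and place. The tools were Python 3.11.15, pandas 2.3.3, scipy 1.17.1, numpy 2.4.6 and matplotlib 3.10.9.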

Additional observations from a re-analysis of the deposited data

How the results depend on the processing

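The 9 quantities that summarise the 59 introns were recomputed 50 times in all, each under 1 alternative, and in 45 of these the value stayed within 1.5 times the reported one; the 5 others concern 4 of the quantities. With a false discovery rate of at most 0.01 the introns numbered 38, with 11 in the 5′ UTR and 10 coding introns with a stop in frame. The median position was 61.0% of the transcript without the 5′ UTR introns. It was 21.1% without the introns that overlap another annotated gene, an alternative added after seeing the data. Leaving out 1 joined value in both genotypes at a time gave 58 to 60 introns higher in the mutant, a median difference of 24.6 to 29.7 points, and 35 to 42 introns at least 20 points higher. Each such omission put 1 of the 59 below the wild type: AT1G70620 at -2.01 points (12.1 at the highest over the omissions), IQD5 at -6.06 and AT1G28710 at -6.99. The median difference was 25.1 points over the 52 introns with at least 10 reads in each genotype. No paired analysis was possible because the labels give 1 sample for each genotype. Depth limits the introns with few reads: 7 of the 59 had fewer than 10 reads in a genotype, and their shares carry wide intervals.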
